A study of Caenorhabditis elegans with 2 samples.

Results

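The 10 genes described here belong to the C. elegans network that specifies endoderm in the embryo. They are the GATA factor genes elt-2, elt-4, elt-7, end-1, end-3, med-2 and med-1, the Wnt effectors sys-1 and pop-1, and the homeobox gene pal-1. They were chosen by name and role from 19973 protein-coding genes on the 6 nuclear chromosomes. Their promoters were examined for binding of SKN-1 in L1 larvae, long after the embryonic stage at which the network specifies endoderm. Chromatin was immunoprecipitated from whole larvae of strain OP178, of mixed sex and unknown age, in 2 biological replicates of 1 group. Both carried unc-119(ed3) and the integrated transgene wgIs178, a source of eGFP-tagged SKN-1. The labels name skn-1 as the antibody and do not say whether the tag or the protein was precipitated, and chromatin from worms without the transgene was not analysed here, so specificity was not tested. There was no second stage, genotype or treatment, so nothing was compared between conditions. In whole larvae, strong binding in a few cells and weak binding in many cannot be told apart.

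In the embryo, the transcription factor SKN-1 is maternally supplied and switches on the med genes in the EMS blastomere. MED-1 and MED-2 are GATA-type factors that activate end-1 and end-3 in the E daughter cell, and END-1 and END-3 in turn activate elt-7 and elt-2. ELT-2 and ELT-7 maintain intestinal gene expression through larval and adult life, and elt-4 encodes a short GATA factor closely related to ELT-2. A Wnt signal acts on the same step through POP-1, a TCF/LEF-type factor, and its coactivator SYS-1, a beta-catenin. PAL-1, a caudal-type homeobox factor, specifies other posterior blastomeres and contributes to endoderm when the main inputs are weak.

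The deposited ce11 lists hold regions, not reads, and sequencing depth is therefore unknown. The optimal list held 3484 regions, all of them the 3484 strongest of the 27729 in the pooled list by the authors' signal value, and each replicate's own list held 30000. Pooled and replicate lists, which are the input of IDR (irreproducible discovery rate, a filter on agreement between replicates), include background regions, so a region in them is not by itself a peak. Ranks below run from 1, the strongest, within the list named, and signal values are the authors' and are read within 1 list only. A gene was counted when a summit fell between 1000 bp upstream and 200 bp downstream of any of its annotated transcript starts.

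Of the 10 genes, only sys-1 had an optimal summit in a promoter window. That is 10% of the genes (exact Clopper-Pearson 95% interval 0.253 to 44.5, counting error only), beside 15.1% of all protein-coding genes. None of the 7 GATA factor genes had one, for which the exact Clopper-Pearson upper bound was 41.0% and the limit of 3 counts that a count of 0 allows was 42.9%. In the pooled list 6 of the 10 had a summit in the window (44.7% of all genes did). In replicate 1's list 5 of the 10 did (45.8% of all genes), and in replicate 2's list 5 did (46.2% of all genes). The windows of 4 genes, end-3, pop-1, sys-1 and pal-1, held summits of both replicates, a state found for 32.5% of all genes. The genes elt-4, med-1 and med-2 had no summit in the window in any of the 4 lists. With 10 genes, each gene moves these shares by 10 percentage points, and no difference from all genes was tested.

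**Figure D1:**
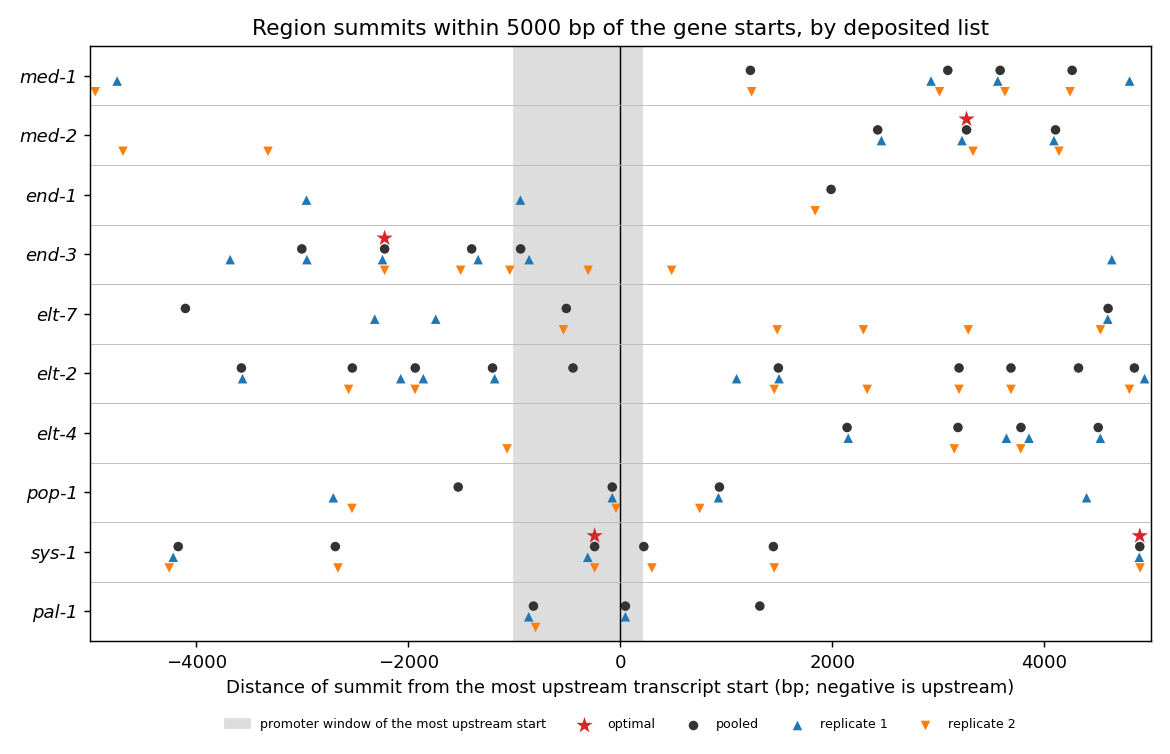
Summits of the 4 deposited ce11 lists (symbols) within 5000 bp of the most upstream annotated start of each gene, along the x axis in bp, with upstream to the left. The grey band is the promoter window of that start, and within the bands the only optimal summit is that of sys-1.

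Both med promoters, direct embryonic targets of SKN-1, carried many copies of its core word and no region. They are shown because each holds 6 matches to the SKN-1 core (ATCAT or GTCAT on either strand, in capitals) in the 250 bp before the annotated start. Overlapping matches are counted separately. The sequences are from the RefSeq copy of WBcel235, plus strand, 5′ to 3′. No UTR is annotated for either gene, and the stretches end just before the start, at chrX:12430359-12430608 and chrIII:6884253-6884502.
med-1: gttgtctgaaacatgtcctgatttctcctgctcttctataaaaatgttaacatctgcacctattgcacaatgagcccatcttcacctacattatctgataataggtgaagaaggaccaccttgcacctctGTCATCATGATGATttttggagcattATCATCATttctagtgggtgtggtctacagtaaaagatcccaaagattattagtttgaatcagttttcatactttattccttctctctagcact
med-2: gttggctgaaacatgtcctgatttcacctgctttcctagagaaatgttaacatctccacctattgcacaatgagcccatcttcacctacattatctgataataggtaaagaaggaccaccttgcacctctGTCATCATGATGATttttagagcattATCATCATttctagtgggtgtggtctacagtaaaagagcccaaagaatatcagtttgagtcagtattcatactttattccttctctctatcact

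All 6 matches in each promoter lay from 120 to 87 bp upstream of the start. Only 0.451% of all protein-coding genes had 6 or more matches in the same stretch, where the median gene had 1 and 62.4% had any. Over the whole window from 1000 bp upstream to 200 bp downstream, med-1 had 12 matches and med-2 had 14, against a median of 5 for all genes (2.45% and 0.596% of genes had as many or more), and 98.9% of windows held at least 1. That spelling of the core and the 250 bp stretch were both chosen after values were seen. With the spelling chosen earlier, TNTCAT, each gene had 6 matches in the window, a count reached by 36.0% of genes. In the 250 bp stretch TNTCAT occurred 3 times for med-1 and 2 times for med-2, reached by 10.3% and 29.6% of genes. Within 75 bp of the summit, ATCAT or GTCAT occurred in 42.5% of optimal and 44.7% of pooled regions. For TNTCAT the shares were 41.9% and 43.7%, so neither spelling was more frequent in the stronger list. A match is a string of letters and not evidence of a binding site.

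The nearest regions to med-1 (WBGene00003180, chromosome X, 12430609 to 12431133) lay downstream of the gene. The nearest pooled summit was 1226 bp downstream of the start, rank 19368 of 27729. Replicate 2 had a summit 1238 bp downstream, rank 19038, and replicate 1's nearest was 2930 bp downstream, rank 20297. The nearest optimal summit was 21857 bp away, in an intron of T18D3.9. For med-2 (WBGene00003181, chromosome III, 6884503 to 6885027) the nearest optimal summit was 3265 bp downstream, in an intron of the neighbouring gene brd-1, with rank 1853. The nearest pooled summit was 2427 bp downstream (rank 14322) and replicate 1's nearest 2462 bp downstream (rank 5428), both in coding sequence of brd-1. Replicate 2's nearest was 3324 bp upstream (rank 18857). Close to the optimal summit, replicate 1 had a summit in brd-1 3222 bp downstream of med-2 (rank 3349, signal 15.6). Replicate 2 had one at 3326 bp (rank 1314, signal 41.0). Both replicates therefore placed a region inside brd-1, while neither had a summit in the med-2 window.

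Repeated sequence limits what can be read at this pair of genes. The 250 bp upstream of the starts are 94.0% identical between them, base by base, and 39 of the 64 words of 31 bases that overlap the 6 core matches occur once in the genome. Over the whole window 85.7% of such words were unique for each of the 2 genes, while the other 8 genes ranged from 99.2% to 100%. Of all protein-coding genes, 14.6% had a window below 90%. The read length and the treatment of repeated reads were not given in the sources used here, so the part of repeats in the absence of regions was not tested.

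**Figure D2:**
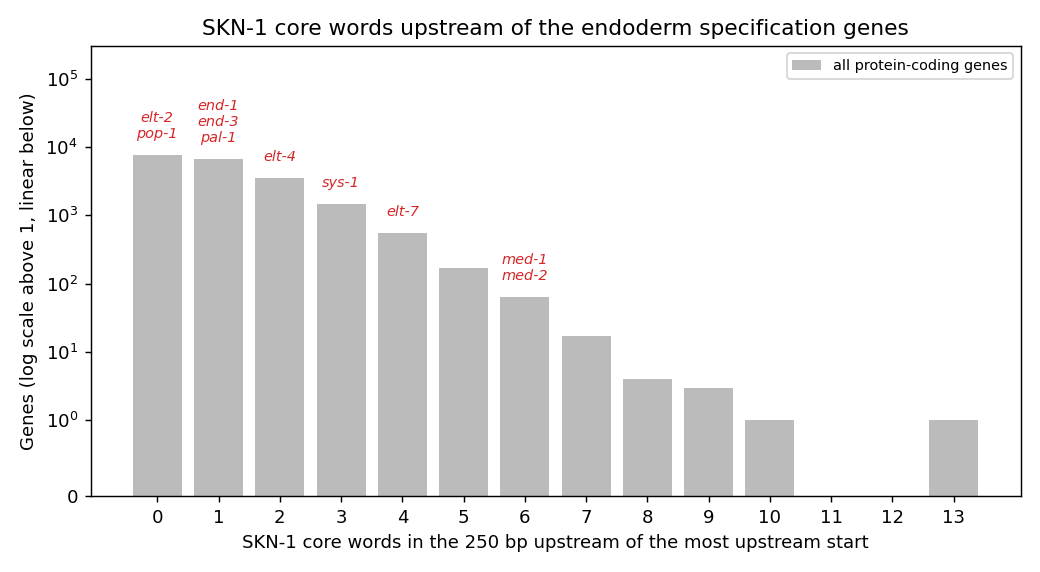
Number of protein-coding genes (y axis, log scale above 1) by the number of SKN-1 core words in the 250 bp upstream of the most upstream start (x axis), with the 10 genes named above the bars. The genes med-1 and med-2 sit at 6 matches, and elt-2 and pop-1 at 0.

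The end genes differed from each other in what lay near them. For end-1 (WBGene00001310, chromosome V, 13985128 to 13987074), replicate 1 had a weak summit 943 bp upstream, rank 14414, with a signal of 5.68. Replicate 2's nearest summit to that position was 2780 bp away, at rank 24123, and no pooled summit lay in the window. The nearest optimal summit was 22944 bp away. The sequence within 75 bp of replicate 1's summit is shown because it is the only listed region in the end-1 promoter window. It spans chrV:13984110-13984260 on the plus strand, with 2 core matches in capitals.
end-1: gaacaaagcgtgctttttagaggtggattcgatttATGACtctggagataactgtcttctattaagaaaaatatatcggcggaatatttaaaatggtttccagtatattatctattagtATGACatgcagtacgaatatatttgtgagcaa

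By end-3 (WBGene00001311, chromosome V, 14014695 to 14015980) stood a series of upstream regions that ran from ddx-17 through the neighbouring gene aip-1. In ddx-17 a pooled summit lay 3005 bp upstream of end-3 (rank 8593, signal 16.4), and replicate 1's lay at 2957 bp (rank 3612, signal 14.6). The strongest, at rank 26 in the optimal list with a signal of 361, had its summit 2224 bp upstream of end-3 but only 138 bp downstream of the start of aip-1, whose window it shares with ddx-17. It ranked 45 in replicate 1 and 22 in replicate 2. A pair of weaker pooled regions followed toward end-3, at 1403 bp (rank 3844, signal 30.2, in an intron of aip-1) and at 941 bp (rank 3977, signal 29.3, intergenic). Both fell below the optimal list, whose weakest region had a signal of 33.0.

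The region 941 bp upstream is the strongest in any window of the 7 GATA factor genes in the pooled list. Replicate 1's summit was 861 bp upstream of end-3, rank 4628, signal 11.9. Replicate 2's was 1043 bp upstream, rank 2097, signal 30.5, which is outside the window by position, so its count for end-3 rests on a much weaker summit 304 bp upstream, rank 19714. The 2 replicates' summits near 941 bp lay 182 bp apart. The 151 bases around the pooled summit, at chrV:14013679-14013829 on the plus strand, held no core match, and 44.7% of all pooled regions held any. They are shown as the strongest region in a GATA gene window.
end-3: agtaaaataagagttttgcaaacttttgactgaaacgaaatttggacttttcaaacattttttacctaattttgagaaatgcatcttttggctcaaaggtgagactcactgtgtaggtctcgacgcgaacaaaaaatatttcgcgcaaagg

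The end promoters carried words of the factor that acts on them in the embryo. The word AGTATAC, on either strand, stands for the site bound by MED-1 and MED-2. It occurred 4 times in the 250 bp upstream of end-3 and 2 times upstream of end-1, and in 1.45% of all promoters of that length. No other member had it, in that stretch or in the wider window. This describes the sequence and says nothing of SKN-1.

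Around elt-2, the master regulator of the larval intestine, no listed region was in the optimal list. The gene elt-2 (WBGene00001250, chromosome X, 10481240 to 10483441) had 1 pooled summit in the window, 447 bp upstream, rank 9140, signal 15.8. Neither replicate's own list held a summit within the window, and the nearest were 739 bp (replicate 1) and 1490 bp (replicate 2) from the pooled one. That of replicate 1 lay 1186 bp upstream of the start (rank 5680, signal 10.1), beside another pooled summit at 1206 bp (rank 13010). Farther upstream, a pooled summit at 1935 bp (rank 6397) had a counterpart in replicate 2 at 1937 bp (rank 6025), and replicate 1 had summits at 1859 and 2072 bp (ranks 26227 and 7105). The nearest optimal summit to elt-2 was 43428 bp away, the farthest of the 10 genes. The region at 447 bp is shown because it is the only listed one in the elt-2 window. It spans chrX:10480718-10480868 on the plus strand, with 1 core match in capitals.
elt-2: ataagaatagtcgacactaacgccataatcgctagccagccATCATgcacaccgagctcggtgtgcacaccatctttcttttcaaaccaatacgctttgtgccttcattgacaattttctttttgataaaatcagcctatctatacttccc

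The GATA word GATAA occurred 9 times in the elt-2 window, a count reached by 1.38% of all windows, while the median was 3. The other 9 genes had 1 to 6.

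For elt-7 (WBGene00015981, chromosome V, 4770670 to 4773086) the window held a pooled summit 510 bp upstream, rank 20052, and replicate 2's 537 bp upstream, rank 13974, signal 8.44. Replicate 1's nearest summit to the pooled one was 1232 bp away. The pooled summit was 427 bp upstream of C18G1.9, which lies on the other strand, and so nearer to that gene than to elt-7. The gene elt-4 (WBGene00001252, chromosome X, 10475527 to 10475959) lies upstream of elt-2 on the same strand. Its nearest summit was replicate 2's, 1069 bp upstream at rank 15560, and its nearest optimal summit was 39865 bp away. The nearest pooled summit was 2118 bp downstream (rank 20104), and replicate 1's was 2129 bp downstream (rank 6717).

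Both Wnt effectors had a summit close upstream of a start in each replicate. The gene sys-1 (WBGene00006379, chromosome I, 9980063 to 9984794, minus strand) had the optimal region at 9984889 to 9985184, with its summit 243 bp upstream of the nearest start, in intergenic sequence. It ranked 2576 of 3484, with a signal of 43.1. Replicate 1's summit lay 308 bp upstream (rank 2456, signal 19.9) and replicate 2's 243 bp upstream (rank 2345, signal 27.9), so the 2 were 65 bp apart. No other protein-coding gene had that summit in its window. A stronger optimal region, rank 96 with a signal of 222, lay 3174 bp downstream of the nearest sys-1 start and 233 bp upstream of eif-3.C, a translation initiation factor subunit.

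For pop-1 (WBGene00004077, chromosome I, 2822243 to 2830311, minus strand) the replicates' summits were closer still but weaker. They lay 77 bp (replicate 1, rank 8004, signal 8.07) and 42 bp (replicate 2, rank 15342, signal 8.0) upstream of the start, 35 bp apart. The pooled summit, 77 bp upstream, ranked 8484, well below the optimal list. The nearest optimal summit was 30867 bp away. The pop-1 promoter had no core match in the 250 bp upstream of the start, and sys-1 had 3.

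For pal-1 (WBGene00003912, chromosome III, 4804688 to 4809576, minus strand, with 5 distinct starts), summits of both replicates lay at 865 bp (replicate 1, rank 13222, signal 5.96) and 800 bp upstream (replicate 2, rank 5284, signal 14.9). They were 65 bp apart and fell inside the upstream gene C38D4.7. A region over the start itself, 24 bp downstream, ranked 20036 in the pooled list and 29975 in replicate 1, nearly the last of 30000. Of all 10 genes, only pop-1, sys-1 and pal-1 had window summits of the 2 replicates within 100 bp of each other. The share of all protein-coding genes in that state was not counted, so nothing particular to these 3 is read from it.

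**Figure D3:**
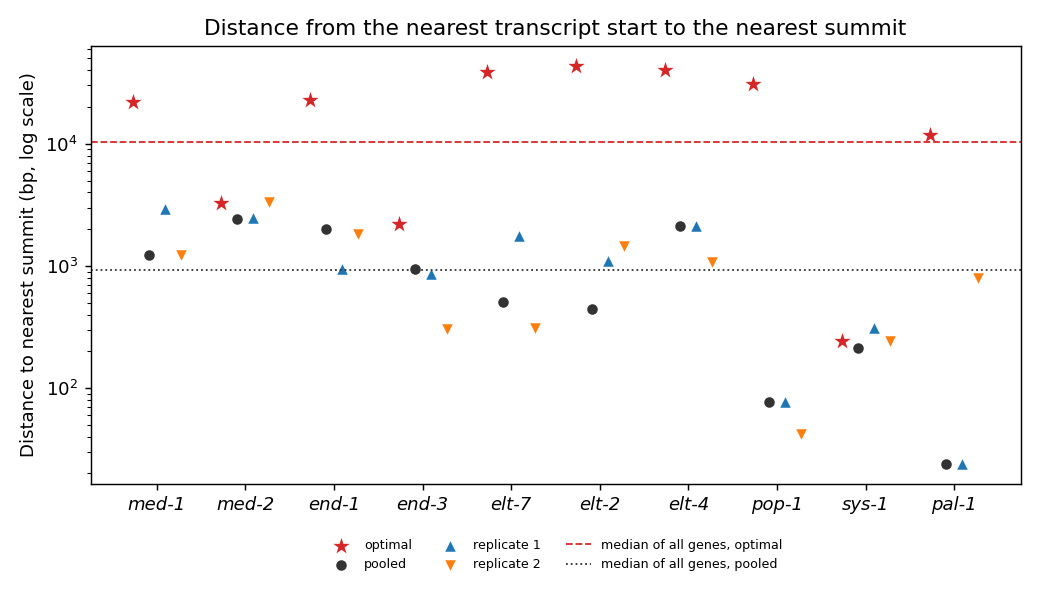
Distance in bp (y axis, log scale) from the nearest transcript start of each gene (x axis) to the nearest summit of each list (symbols), with the medians over all protein-coding genes for the optimal (dashed) and pooled (dotted) lists. Optimal summits lie 20000 bp or more from 6 of the 10 genes.

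Distances to strong regions were long for most of the genes. The median distance to the nearest optimal summit was 22400 bp, from 243 bp for sys-1 to 43428 bp for elt-2, against a median of 10380 bp over all genes. At 20000 bp or more, a limit chosen after values were seen, lay 6 of the 10, and 31.8% of all genes. Of these 6, elt-2 and elt-4 lie in the same stretch of chromosome X without an optimal summit, so their distances are not independent. In the pooled list, which covers the genome far more densely, the median was 725.5 bp against 920 bp. In both replicates' lists the order was the other way, with 1020 bp against 828 bp in replicate 1 and 934.5 bp against 841 bp in replicate 2. None of these differences was tested.

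Genes that act beside the members were described the same way. Of 18 genes of the Wnt, MAPK and Src signals received by the EMS cell, 7 had an optimal summit in the window (38.9%, against the 15.1% of all genes). The 4 strongest were mig-5, a Dishevelled (rank 105, 191 bp upstream), wrm-1, a beta-catenin (rank 1651), mom-1, a Porcupine-type enzyme (rank 2059, nearer to lev-9), and lit-1, a Nemo-like kinase (rank 3058). Of 13 maternal fate regulators 3 had one, par-2 (rank 112), mex-1 (rank 158) and spn-4 (rank 331), and each of these summits was nearer to the start of another gene (rab-18, W03C9.5 and spe-39). None of the 4 other GATA factor genes and none of the 12 mesoderm and other early lineage factors had one.

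Downstream of the network, 1 of 14 intestine differentiation genes had an optimal summit in the window (7.14%, against 15.1% of all genes). This was erm-1, which encodes an apical cytoskeletal linker of the intestine (rank 1553). Genes named sdz, for SKN-1-dependent zygotic transcripts of the embryo, carry 32 names, and since sdz-25 names 2 genes in the annotation they numbered 33. Of these, 2 had an optimal summit in the window (6.06%, against 15.1% of all genes). These were sdz-8 (rank 226, 186 bp upstream) and sdz-1 (rank 1178, nearer to vps-33.1). These counts describe the lists and were not tested against other genes.

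**Figure D4:**
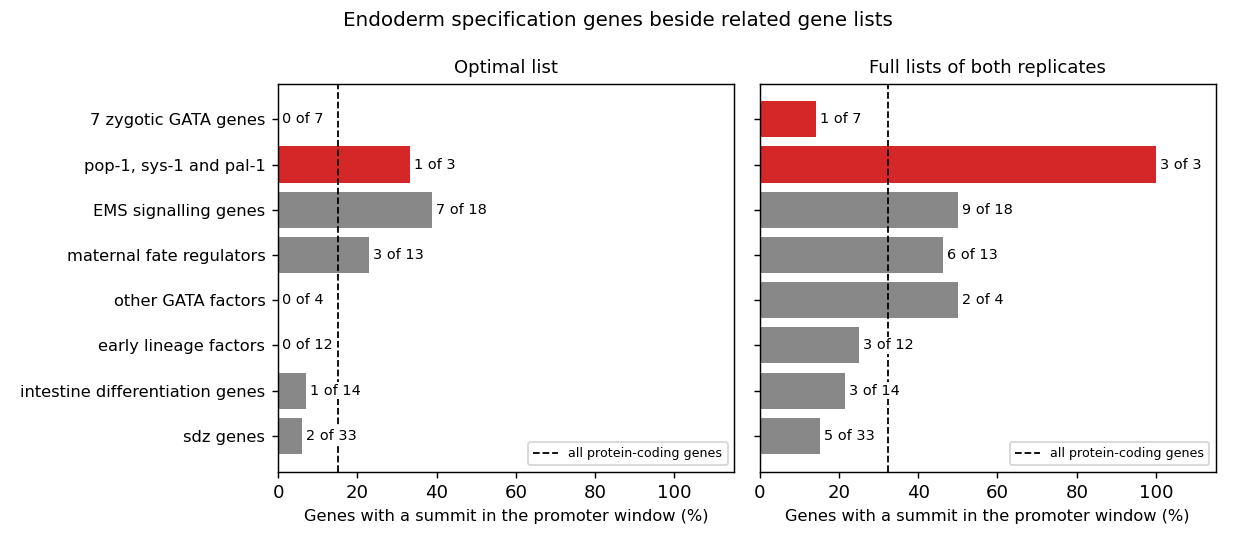
Share of genes with a summit in the promoter window (x axis, percent) for the 7 GATA factor genes, for pop-1, sys-1 and pal-1, and for related gene lists (y axis), in the optimal list (left) and in the full lists of both replicates (right). Counts stand beside the bars and the dashed line is the share of all protein-coding genes, 15.1% and 32.5%.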

How the data were processed

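Binding of eGFP-tagged SKN-1 in L1 larvae was read from 4 deposited ce11 region lists (optimal, pooled and 2 replicates), in narrowPeak layout. Per the deposited readme, replicate and pooled lists were made by the authors from the alignments and 1 control alignment as input to IDR. The caller, aligner and IDR threshold were not given in the sources used here. The deposited signal value of each region served to rank regions within a list, and the deposited −log10 q-value was read but not used for ranking. The control alignment and the ce10 lists were not analysed here.

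Summits (start plus peak offset) were set against transcript starts of Ensembl release 115 (WBcel235, the ce11 assembly), counted from 1. Words were searched on both strands of the RefSeq WBcel235 genome. Uniqueness is the share of 31-base words found once on either strand of the 6 nuclear chromosomes. Assignment, word search and uniqueness were tested on simulated data. No test across genes was run. The replicates are labelled as biological, but which cultures they came from is not stated.

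The 10 genes and all lists were chosen with earlier results of these data known. Genes named are the 10, up to 4 per list with the strongest optimal summits, and the genes nearest to each region described. The SKN-1 core spelled ATCAT or GTCAT, the 250 bp stretch, uniqueness over the core matches, the 100 bp limit between replicate summits and the 20000 bp limit were added after the data were seen. Alternatives were the window, overlap of any base, nearest start only, stricter lists, each replicate alone and 24-base words. Python 3.11.15, numpy 2.4.6, scipy 1.17.1 and matplotlib 3.10.9 were used.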

Additional observations from a re-analysis of the deposited data

How the results depend on the processing

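The count of genes with an optimal summit stayed at 1 of 10 with narrower (500 bp upstream to 100 bp downstream) and wider (2000 bp upstream) windows, with any base of a region counted, with nearest starts only and with each replicate's own 3484 strongest regions (1 to 1 without replicate 1 or 2). It was 0 with the 1742 strongest optimal regions, since sys-1 ranks below them, beside 8.81% of all genes. The share of all genes was 12.2% in the narrower and 19.1% in the wider window, the highest of these settings. The count of 1 thus stood beside a share that moved, and no difference from these shares was tested. With only the 3484 strongest regions, the pooled count fell from 6 to 1, beside 15.1% of all genes. Replicate 1's and replicate 2's counts fell from 5 to 1 each, beside 14.1% and 14.9% of all genes. That of both replicates fell from 4 to 1, beside 11.5%. In the narrower window, replicate 1's and replicate 2's counts were 3 each, beside 33.9% and 34.5% of all genes. That of both was 2, beside 22.8%. Those settings keep fewer regions or bases, and the share of all genes fell too. Whether the counts fell for that reason alone was not tested. The median distance to an optimal summit was 42636 bp with those 1742, and 20358 to 20665 bp without either replicate. Unique sequence over the 10 windows was 97.1% with 31-base and 95.8% with 24-base words. Core words averaged 4.80 per window as TNTCAT and 7.50 as ATCAT or GTCAT, a choice made after seeing the data, and the contrast of med-1 and med-2 with other genes rests on the latter spelling. No paired analysis was possible because there is 1 group. Depth is unknown, so an absent region is not absent binding.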

Other observations

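The intestine differentiation genes differed between the replicates' full lists. Of 14 genes, 10 had a replicate 1 summit in the promoter window (71.4%, against 45.8% of all genes). A replicate 2 summit was found for 4 (28.6%, against 46.2%), and summits of both for 3 (21.4%, against 32.5%). In the optimal list 1 of the 14 had one (7.14%, against 15.1%). Of the 33 sdz genes, 5 had a summit in replicate 1 (15.2%) and 8 in replicate 2 (24.2%). These full lists include background regions, and neither the difference between replicates nor that between gene lists or from all genes was tested.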
